A study of Mus musculus with 36 samples.

Results

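The genes described here are 8 that act in the licensing and copying of DNA, Mcm2, Mcm3, Mcm4, Mcm5, Mcm6, Mcm7, Pcna and Cdt1, in mouse skeletal muscle stem cells (MuSCs, also called satellite cells, which rebuild muscle fibres). They were taken by symbol from the deposited table, and all 8 were among its 11337 genes. PolyA RNA was sequenced in 36 libraries, each from the MuSCs of 1 male mouse of the strain given as C56BL/6, aged 3 months (young) or 18 months (old), so per the labels the replicates are mice.

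The 36 mice fall into 8 groups in 2 cohorts. In the wheel cohort, mice had a running wheel for 3 weeks, locked in some cages and free in the others, and hindlimb MuSCs were sorted as viable CD31-, CD45-, Sca1-, VCAM+ cells. It holds 6 young locked, 3 young free, 7 old locked and 5 old free libraries. In the Ccnd1 cohort all mice, controls included, carried Pax7_CreERT2, a tamoxifen-inducible Cre recombinase expressed from Pax7, and the reporter R26R_YFP. All received tamoxifen, and viable YFP+ cells were sorted 6 weeks later, so a deletion is limited to cells that expressed Pax7 when tamoxifen was given. The genotypes were Ccnd1 +/+ (WT, 3 young and 3 old mice), Ccnd1 +/flox (HET, 4 young mice) and Ccnd1 flox/flox (KO, 5 young mice). Mice of the wheel cohort are labelled as WT for Ccnd1.

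Before a cell copies its DNA, replication origins are licensed in G1. The origin recognition complex with Cdc6 and Cdt1 loads the MCM helicase, a ring of the subunits Mcm2, Mcm3, Mcm4, Mcm5, Mcm6 and Mcm7, onto DNA, where it stays idle until kinases switch it on in S phase. Pcna is the sliding clamp that holds the polymerases during synthesis and is needed for the destruction of Cdt1 that prevents a second round of licensing. Transcription of these genes is known to rise through E2F factors once cyclin D and its kinases inactivate the retinoblastoma protein, and MCM genes are known to be low in quiescent cells, the state of most MuSCs in resting muscle.

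Promoter sequences are shown for the ring subunits because 3 of them changed together with age while the other 3 were not called. RefSeq entries of build GRCm38.p6 were found for 7 of the 8 genes, all but Mcm4, with 8 windows of 300 bases in all, from 250 bases before to 50 bases after each start. Both strands were searched for the E2F letters TTTCCCGC, TTTGGCGC, TTTCGCGC and TTTGCCGC, which can overlap one another. They occurred in 5 of the 7 genes (Mcm3, Mcm5, Mcm6, Mcm7 and Cdt1) and in neither Mcm2 nor Pcna. A gene counted if any of its windows held a match, and 1 window of Mcm7 held 0. The share over all RefSeq genes is per window, 2.26% of 32851, so the measures are not alike. In Mcm3 (20 to 27 and 39 to 46) and Cdt1 (33 to 40) the matches lie only after the start. The 200 bases before the start follow, on the strand of the gene, with E2F letters in capitals. Mcm2 lies on the minus strand (chr6:88898781-88898980) and Mcm6 on the minus strand (chr1:128359706-128359905), and both fell with age. Mcm5 lies on the plus strand (chr8:75109309-75109508), Mcm7 on the minus strand (chr5:138171884-138172083), and neither was called in any comparison.
Mcm2: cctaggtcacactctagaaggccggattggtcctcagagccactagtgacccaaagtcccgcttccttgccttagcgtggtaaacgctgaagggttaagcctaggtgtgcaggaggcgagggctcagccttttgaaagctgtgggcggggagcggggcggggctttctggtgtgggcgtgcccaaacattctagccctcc
Mcm6: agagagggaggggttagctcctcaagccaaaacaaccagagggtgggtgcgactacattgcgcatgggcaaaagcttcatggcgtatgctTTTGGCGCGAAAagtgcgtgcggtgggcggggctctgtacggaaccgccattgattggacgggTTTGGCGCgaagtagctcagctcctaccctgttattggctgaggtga
Mcm5: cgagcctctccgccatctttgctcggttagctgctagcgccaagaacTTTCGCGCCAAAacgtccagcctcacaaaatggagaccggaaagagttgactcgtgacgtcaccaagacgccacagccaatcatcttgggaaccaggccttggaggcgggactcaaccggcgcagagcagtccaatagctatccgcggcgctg
Mcm7: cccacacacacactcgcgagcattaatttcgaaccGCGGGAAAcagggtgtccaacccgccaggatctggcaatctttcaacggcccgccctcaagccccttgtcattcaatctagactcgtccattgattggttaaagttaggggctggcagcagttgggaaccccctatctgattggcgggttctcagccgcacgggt

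The Mcm6 stretch holds an overlapping pair of E2F matches from -110 to -99 and a further match from -47 to -40, counted from the start. Mcm5 holds an overlapping pair from -153 to -142, and Mcm7 holds 1 match from -165 to -158, with another after the start. Mcm7 has a second RefSeq start, at chr5:138171266, whose window holds 0 E2F matches and is not shown. Both Mcm7 starts lie inside the span given for the gene below, which comes from another annotation. The Mcm2 window instead holds TTTGAA, the letters of the CHR element known from promoters of mitotic genes, at -70 to -65, as do 17.9% of all windows. CCAAT, which 37.4% of all windows hold, was in each of the 7 genes but Cdt1. A match is a description of the sequence, and genes with and without E2F letters were among both those that fell with age (Mcm6 and Mcm2) and those that rose with age (Cdt1 and Pcna).

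Levels are given in RPKM, a read count divided by gene length and library size, on which genes can be compared per length. Libraries were sequenced to 20 to 40 M reads per the labels' protocols. The values keep no counts, the depth of a given library is therefore unknown, and no counting error is given. The RPKM values summed to 273837 to 350969 per library. On the log2 scale 6 directions of variation were missing beside a model in which the WT and locked-wheel controls of each age were merged. Young WT and young locked libraries accordingly had 0 of 11337 genes with an unadjusted limma p under 0.05, where 567 would be expected, and the same held for old WT and old locked libraries. Age was thus not measured independently in the 2 cohorts, and tests were made within a cohort. Those tests made no allowance for the missing directions, so their standard errors (SE) and p-values may be too small. By how much was not tested. All 11 satellite cell markers were present (Pax7 at 14.2 to 32.5 RPKM, Vcam1 at 121.8 to 239.7 RPKM), as were markers of other cells of muscle at lower summed levels. Keratinocyte markers, of which 8 of 10 are in the table, summed to 89.7 to 211 RPKM in the 4 HET libraries and to at most 29.1 RPKM in any other.

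The ring subunits differed widely in level, although the proteins act together in 1 ring. Over the 36 libraries the mean was 24.6 RPKM for Mcm4, 9.11 for Mcm7, 5.27 for Mcm6, 4.61 for Mcm3, 2.77 for Mcm5 and 1.11 for Mcm2. Pcna was the highest of the 8 genes with a mean of 44.5 RPKM, and Cdt1 had 3.81 RPKM. Mcm2 and Mcm6 varied most among libraries, with a highest value 5.15 and 4.63 times the lowest, and Pcna varied least, with 1.88 times. The Mcm4 to Mcm2 ratio of levels averaged 13.7 ± 0.539 (SD, n = 3) in young free and 21.8 ± 3.74 (n = 6) in young locked libraries. It averaged 18.6 ± 6.21 (n = 5) in old free and 33.5 ± 9.95 (n = 7) in old locked libraries, so Mcm4 and Mcm2 did not keep a fixed proportion. Mcm2, the divisor, is low, with its mean at percentile 7.15 of the table.

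**Figure D1:**
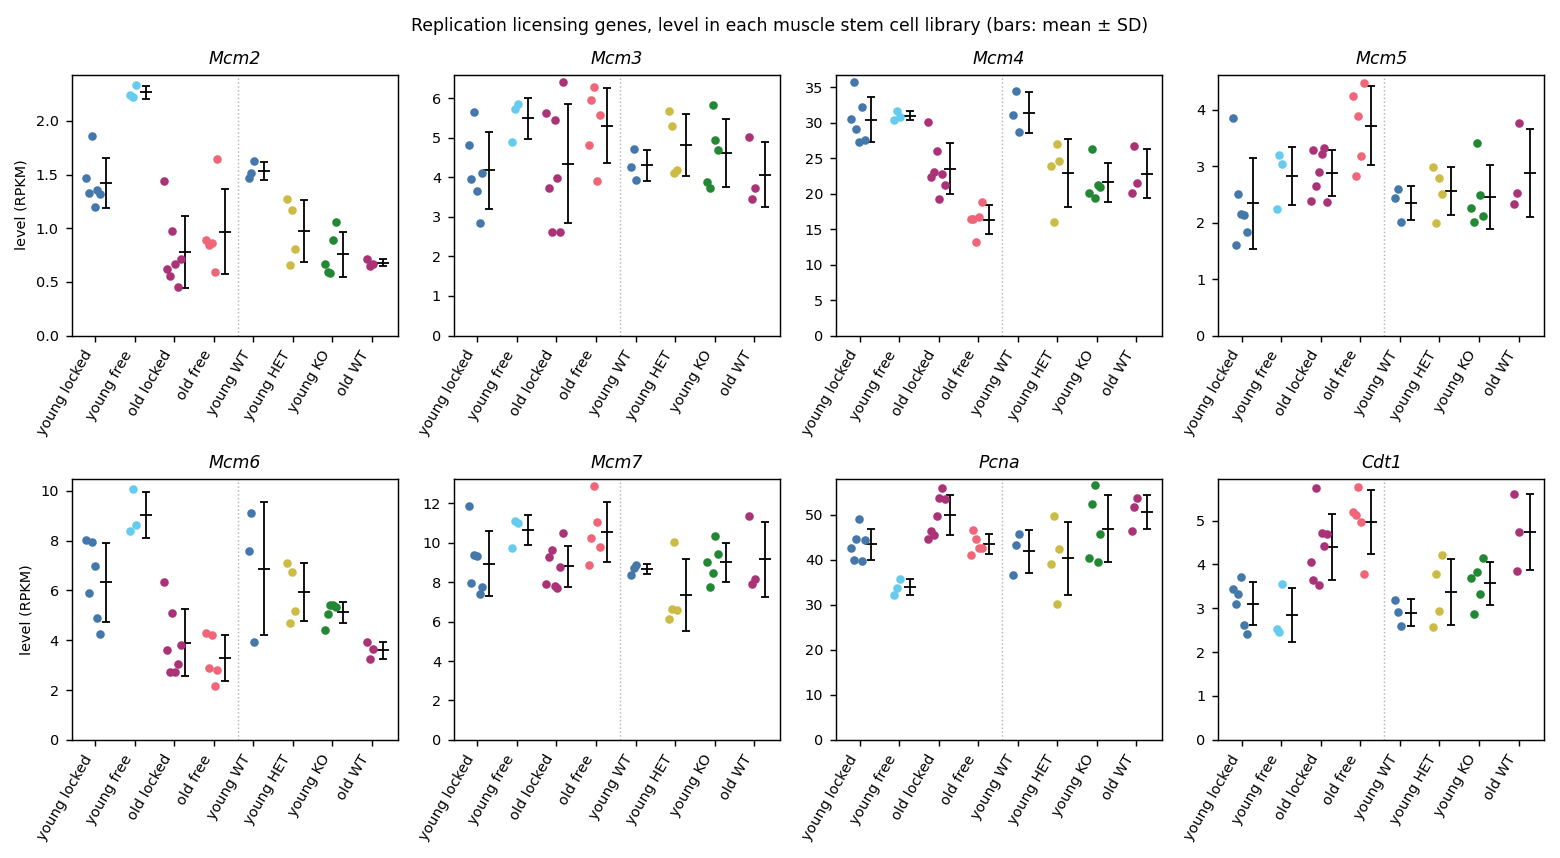
Each panel shows 1 gene, with its level in RPKM on the vertical axis (from 0) and the 8 groups on the horizontal axis; points are libraries, black bars are the mean ± SD, and the dotted line divides the wheel cohort from the Ccnd1 cohort. All 3 young free libraries are above every other library for Mcm2 (2.22 to 2.34 RPKM), and all 5 old free libraries are below every old locked library for Mcm4.

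With age in the wheel cohort, Mcm2, Mcm4 and Mcm6 fell while Cdt1 and Pcna rose, and Mcm3, Mcm5 and Mcm7 were not called. The comparison asks how MuSCs of 18-month-old mice differ from those of 3-month-old mice when both have a locked wheel. A gene was called when its limma p, adjusted by Benjamini-Hochberg over all 11337 genes, was under 0.05. Whether groups overlapped is given here and below as a description, and the share of all genes without overlap was not counted. Here 2 of the 8 genes were called higher and 3 lower, against 20.5% of all genes called higher and 17.8% lower, so a share of this size is common in this comparison. The median log2 difference of the 8 genes was -0.00, and that of all genes was 0.01.

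Mcm2, a ring subunit that also binds histones, had a lowest, median and highest level of 1.20, 1.34 and 1.86 RPKM in young locked and 0.454, 0.663 and 1.44 RPKM in old locked libraries. The single old library at 1.44 (replicate 1) lies within the young range, and the other 6 are below every young library. The limma difference was -0.96 ± 0.24 on the log2 scale (SE), a 1.95-fold lower level (adjusted p = 0.00322). On the log2(RPKM + 1) scale it was -0.46 (adjusted p = 0.0036), since an added 1 weighs heavily on a gene at this level.

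Mcm6, another ring subunit, ranged from 4.25 to 8.01 RPKM (median 6.45) in young locked and from 2.71 to 6.33 RPKM (median 3.62) in old locked libraries. Most old libraries were below the lowest young one, with an overlap through old replicates 1 and 4. The level was 1.65-fold lower in old mice (log2 difference -0.73 ± 0.20, limma adjusted p = 0.00781). Mcm4, a ring subunit that is a main target of the kinase Cdc7, ranged from 27.3 to 35.7 RPKM (median 29.9) in young and from 19.3 to 30.2 RPKM (median 22.8) in old locked libraries. It was 1.30-fold lower (-0.38 ± 0.09, adjusted p = 0.00307), and old replicate 1 was the only old library inside the young range. Replicate 1 of the old locked mice was thus the highest of its group for all 3 genes that fell.

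Cdt1, the loading factor, moved the other way, from 2.42 to 3.71 RPKM (median 3.22) in young to 3.54 to 5.75 RPKM (median 4.42) in old locked libraries. This was a 1.42-fold higher level (0.50 ± 0.13, limma adjusted p = 0.00512), with the groups overlapping only between 3.54 and 3.71 RPKM. Pcna rose by 0.20 ± 0.07 on the log2 scale, 1.15-fold (adjusted p = 0.0189), from 39.7 to 49.1 RPKM in young to 44.6 to 55.8 RPKM in old libraries, and lost the call in 1 fit over all 8 groups (adjusted p = 0.0783). The remaining ring subunits had 95% confidence intervals of the log2 difference from -0.40 to 0.42 for Mcm3, from -0.24 to 0.21 for Mcm7 and from -0.01 to 0.69 for Mcm5. Mcm5 was called higher when young locked replicate 1, at 3.86 RPKM the highest of its group, was left out (0.50, adjusted p = 0.0106).

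The genes around licensing and synthesis showed no common direction with age, in contrast to the mitotic genes. The table holds 12 of 32 listed mitotic genes, of which 11 fell and 0 rose (median log2 difference -1.21). Those that fell include Top2a, the topoisomerase that untangles chromosomes, by 1.43 and Kif11, a spindle motor, by 1.54. Their levels were low, and the 12 genes together summed to 13.3 to 22.8 RPKM in young locked and 7.07 to 8.93 RPKM in old locked libraries. Of 6 genes of origin recognition, Orc2 rose by 0.40 and Orc3 fell by 0.32. Of 10 genes of origin firing, Donson (0.83) and Gins4 (0.49) rose and Gins2 fell by 0.61, although Gins2 and Gins4 encode subunits of the same complex. Of 20 genes of polymerases, clamp loader and lagging strand, 3 rose (Pold4, Pole3 and Pole4) and 4 fell, with Pold1, the catalytic subunit of polymerase delta, lower by 1.74-fold (-0.80 ± 0.20, limma adjusted p = 0.00297). Of 6 genes of the ligases that mark Cdt1 for destruction, Ddb1 fell by 0.45 and Cul4b by 0.54, while Rbx1, Skp1a and Cul1 rose by 0.16 to 0.41.

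Upstream of these genes, the E2F list of 11 had 2 genes higher and 2 lower in old locked libraries (median -0.04). Over all genes 20.5% were called higher and 17.8% lower, so a count of this size is common here. E2f2, an activating E2F, fell by 1.30 and E2f3 by 0.65. E2f4 and E2f6, known mainly as repressors, rose by 0.27 and 0.34. The rest of the list was not called, so the called genes do not stand for the list. Of 13 G1/S genes 2 rose and 6 fell, among them Cdk2 (-0.78 ± 0.12, limma adjusted p = 3.16e-05), the kinase partner of cyclin E, and Ccnd3, cyclin D3, which fell by 0.45. Of 7 genes of deoxynucleotide supply, Tk1 rose by 0.33 and Dck fell by 0.88. The MCM paralogs outside the ring, the loading factor Cdc6 and the Cdt1 inhibitor geminin (Gmnn) were listed but are absent from the table of 11337 genes. Mcmbp, the 1 gene of the loading list that is present, was at 0.18 and was not called.

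Marker genes of other cells also moved with age. In old locked libraries the 8 fibro-adipogenic markers summed to 377 to 453 RPKM against 240 to 299 RPKM in young locked libraries, and 4 were called higher and 1 lower. The 8 keratinocyte markers in the table summed to 14.2 to 21.0 against 6.14 to 9.76 RPKM, with 4 called higher. Of the endothelial markers 3 of 8 rose (Pecam1 by 0.56), and of the Schwann markers 2 of 5 rose (Mbp by 0.48), with 0 lower in either list. Of the 11 satellite cell markers 6 fell, and 3 of 7 myofibre markers fell. Of 6 pericyte markers 1 rose and 1 fell, and of 10 haematopoietic markers 1 rose. The part of these cells in the changes above was not tested, and in bulk libraries fewer cells of a type and less RNA per cell cannot be told apart.

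In the Ccnd1 cohort, old WT libraries had lower Mcm2 and Mcm6 and higher Cdt1 than young WT libraries. With 3 mice against 3, 1 of the 8 genes was called higher and 2 lower, against 8.03% and 7.76% of all genes. Mcm2 was at 1.47, 1.51 and 1.63 RPKM in young WT and at 0.713, 0.649 and 0.671 RPKM in old WT libraries. The groups stood apart, with a 2.27-fold lower level in old mice (-1.18 ± 0.28, limma adjusted p = 0.0118). This call held in all 13 alternatives (adjusted p from 0.00734 to 0.042), and on the log2(RPKM + 1) scale the difference was -0.60.

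Mcm6 was at 7.60, 9.12 and 3.92 RPKM in young WT and at 3.93, 3.25 and 3.64 RPKM in old WT libraries, so the groups met at the lowest young library (replicate 3). It fell by 0.85 ± 0.24 on the log2 scale (limma adjusted p = 0.0285). Cdt1 was at 3.19, 2.92 and 2.59 RPKM in young WT and at 5.60, 3.86 and 4.74 RPKM in old WT libraries, apart without overlap, and rose by 0.70 ± 0.19 (adjusted p = 0.0255). Both calls depended on single libraries. Without young WT replicate 2 or without old WT replicate 3 neither Mcm6 (adjusted p = 0.114 and 0.0716) nor Cdt1 (0.0588 and 0.0704) was called. Mcm6 also lost its call without old WT replicate 2 (0.0811) or young WT replicate 1 (0.0889), and Cdt1 without old WT replicate 1 (0.0905) or young WT replicate 3 (0.0862).

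Mcm4 did not pass in this cohort. Its groups did not overlap, and neither did those of Pcna (36.5 to 45.8 RPKM in young WT, 46.4 to 53.7 RPKM in old WT libraries). With 3 libraries against 3, the share of all genes that separate in this way was not counted. Its levels were 31.2, 34.5 and 28.7 RPKM in young WT and 20.2, 26.8 and 21.5 RPKM in old WT libraries (-0.47 ± 0.17, limma adjusted p = 0.0781, and 0.0367 in 1 fit over all 8 groups). Mcm3, Mcm5, Mcm7 and Pcna were not called, with log2 differences of -0.10, 0.27, 0.06 and 0.28. Of the 12 mitotic genes 7 fell and 0 rose (median -1.29), and Pold1 (-0.63), E2f2 (-1.18) and Cdk2 (-0.80) fell as well. Fibro-adipogenic markers summed to 382 to 513 RPKM in old WT and 254 to 274 RPKM in young WT libraries. Keratinocyte markers summed to 13.4 to 29.1 and 6.70 to 8.24 RPKM. Of 11 satellite cell markers 3 fell and 0 rose, and of 8 endothelial markers 2 rose and 0 fell. Of 6 pericyte markers 1 fell. The part of these markers was not tested. Given how close the controls of both cohorts lie, these values stand beside those of the wheel cohort and not as a repeat of them.

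**Figure D2:**
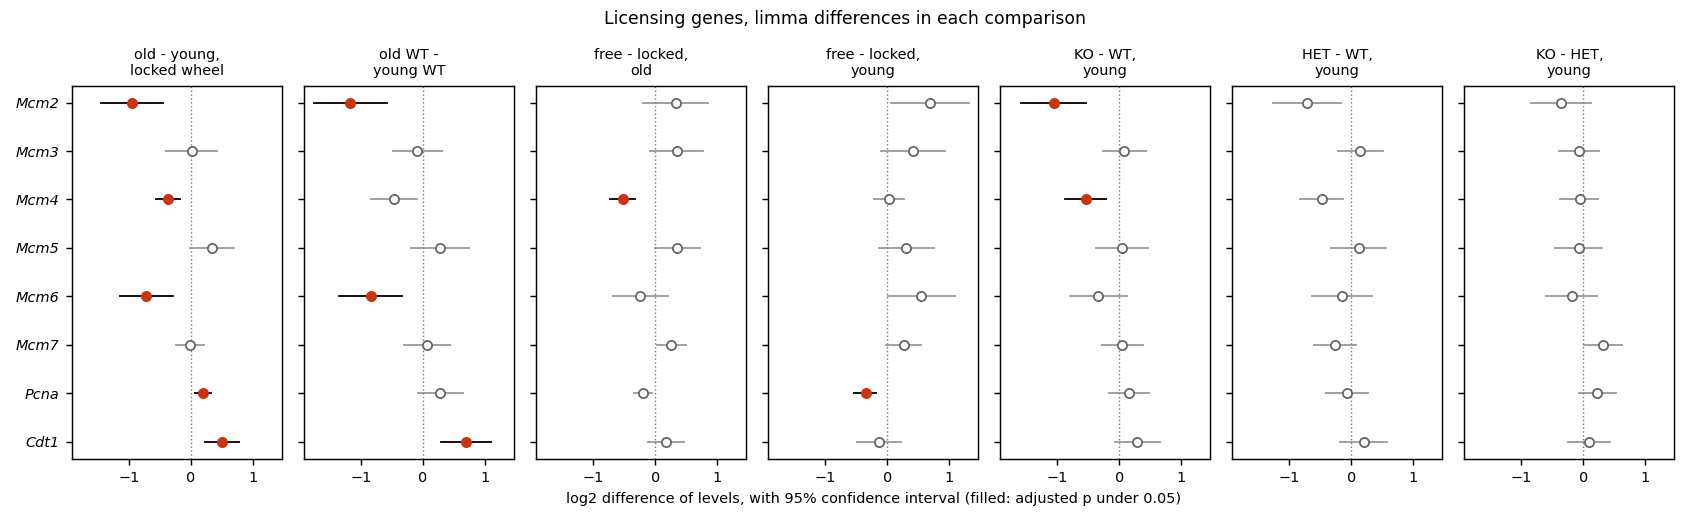
Each panel is 1 comparison, with the log2 difference of levels from limma on the horizontal axis and the 8 genes on the vertical axis; lines are 95% confidence intervals, and filled red points have an adjusted p under 0.05. Mcm2 is at -0.96 and -1.18 in the age panels and at -1.06 in the KO against WT panel, and Mcm4 is the filled point at -0.52 for the free wheel in old mice.

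With a free wheel, old mice had lower Mcm4 and no other called licensing gene, while 6 of 12 mitotic genes rose. The comparison asks what 3 weeks with a free wheel did to the MuSCs of old mice. Of the 8 genes 0 were called higher and 1 lower, against 4.09% and 3.3% of all genes. The median log2 difference was 0.22 over the 8 genes and -0.01 over all genes, and 5 of the 8 were above 0.

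Mcm4 was at 16.5, 16.5, 13.2, 16.7 and 18.9 RPKM in old free libraries, and its lowest, median and highest values in old locked libraries were 19.3, 22.8 and 30.2 RPKM. The groups did not overlap, and old free was the group with the lowest Mcm4 of all 8. The level was 1.44-fold lower with a free wheel (log2 difference -0.52 ± 0.10, limma adjusted p = 0.00402). The call held in all 19 alternatives, with differences from -0.58 to -0.45 and adjusted p from 0.00338 to 0.019. Relative to Mcm7, a neighbouring subunit in the ring, the Mcm4 level was 1.59 ± 0.357 times as high in old free (SD, n = 5) and 2.73 ± 0.627 times as high in old locked libraries (n = 7). Relative to Mcm6, its neighbour on the other side, it was 5.42 ± 1.90 times as high in old free and 6.39 ± 1.36 times in old locked libraries, a difference within the SD.

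The other ring subunits were not called in old mice. Mcm5 was at 4.24, 2.83, 3.88, 3.18 and 4.48 RPKM in old free and at 2.37 to 3.33 RPKM (median 2.91) in old locked libraries (0.36 ± 0.18, limma adjusted p = 0.222). Mcm7 had a log2 difference of 0.26 (adjusted p = 0.164), Mcm3 of 0.35 (0.331), Mcm2 of 0.34 (0.445) and Mcm6 of -0.24 (0.544). Pcna was at 41.0 to 46.6 RPKM in old free and 44.6 to 55.8 RPKM in old locked libraries, 1.15-fold lower (-0.20 ± 0.07, adjusted p = 0.0829). Cdt1 differed by 0.18 (adjusted p = 0.468).

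Among the other lists in old mice, calls were few outside the mitotic genes. Of 20 polymerase and clamp loader genes 1 rose, Rfc5, a subunit of the loader that places Pcna on DNA (0.44 ± 0.13, limma adjusted p = 0.048). Of 7 genes of deoxynucleotide supply 1 rose, Dut, the dUTPase (0.57 ± 0.16, adjusted p = 0.0352). Of 13 G1/S genes Ccnd1 rose by 1.24 and Cdk4 by 0.29, while 0 of 6 origin recognition, 0 of 10 origin firing and 0 of 11 E2F genes were called. Of the 12 mitotic genes 6 rose and 0 fell (median 0.91), and Bub1b was at -0.46 without passing. Among those that rose was Ube2c, which helps to degrade cyclin B, at a 3.17-fold higher level (1.66 ± 0.25, limma adjusted p = 0.00138). Its mean level was low, 1.30 RPKM in old free and 0.421 RPKM in old locked libraries. Endothelial markers summed to 133 to 182 RPKM in old free against 85.5 to 145 RPKM in old locked libraries, and 3 of 8 were called higher. Of 11 satellite cell markers 1 fell (Sdc4, by 0.32), and of 8 fibro-adipogenic markers 1 rose (Col15a1, by 0.57). Of 6 pericyte and smooth muscle markers Acta2 rose by 0.55 and Myh11 fell by 0.53. The part of these markers in the Mcm4 difference was not tested.

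In young mice the free wheel was accompanied by lower Pcna, and no ring subunit was called. Of the 8 genes 0 were called higher and 1 lower, against 0.406% and 0.714% of all genes, and the median log2 difference was 0.29 against 0.00 over all genes. Pcna was at 32.1, 33.8 and 35.7 RPKM in young free and at 39.7 to 49.1 RPKM (median 43.5) in young locked libraries. The groups did not overlap, and the level was 1.28-fold lower (-0.35 ± 0.08, limma adjusted p = 0.0378). This call was lost when any of the 3 young free libraries was left out (replicate 1, 0.189; replicate 2, 0.213; replicate 3, 0.0521) and without young locked replicate 4 (0.0582) or 6 (0.0662), with differences from -0.39 to -0.32.

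Mcm2 and Mcm6 were not called in young free libraries. Mcm2 was at 2.25, 2.22 and 2.34 RPKM in young free and at 1.20 to 1.86 RPKM (median 1.34) in young locked libraries (0.69 ± 0.30, limma adjusted p = 0.272). Mcm6 was at 8.37, 10.1 and 8.64 RPKM against 4.25 to 8.01 RPKM (0.55 ± 0.26, adjusted p = 0.309). The groups, 3 libraries against 6, did not overlap for either gene, but the share of all genes that separate in this way was not counted. Mcm4 was at 30.5, 31.7 and 30.9 RPKM with a free wheel, and its interval ran from -0.21 to 0.28 on the log2 scale. Of the 12 mitotic genes 3 rose (Top2a, Ube2c and Ccnb2, by 1.40, 1.63 and 0.86), and of the other replication and G1/S lists 0 genes were called. Mcm3 had a log2 difference of 0.42 (adjusted p = 0.432), Mcm5 of 0.31 (0.501), Mcm7 of 0.27 (0.353) and Cdt1 of -0.13 (0.761). Among markers of other cells, Mbp, a myelin gene of Schwann cells, fell by 0.71 (adjusted p = 0.0117), and all 5 Schwann markers were below 0 (median -0.51), with summed levels of 17.4 to 19.0 RPKM in young free and 20.1 to 29.6 RPKM in young locked libraries. Lists without a call also leaned to 1 side. Of 8 keratinocyte markers 0 were above 0 (median -0.50), and of 10 haematopoietic markers 7 were (median 0.32). The part of these markers in the differences above was not tested.

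The difference between the wheel effects of old and young mice was itself tested. Of the 8 genes 0 were called, against 0.00882% of all genes called higher and 0% called lower by limma, and 2 of the 8 had an unadjusted p under 0.05. For Mcm4 the old effect was lower than the young one by 0.56 ± 0.15 on the log2 scale (95% interval -0.87 to -0.24, adjusted p = 0.419). For Mcm6 the difference was -0.78 ± 0.34 (adjusted p = 0.556). It was -0.35 for Mcm2, -0.08 for Mcm3, 0.05 for Mcm5, -0.00 for Mcm7, 0.16 for Pcna and 0.31 for Cdt1 (adjusted p from 0.737 to 0.996). Over all 11337 genes 960 had an unadjusted p under 0.05 and 1 was called, so the wheel response of Mcm4 was not shown to depend on age.

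In young KO mice Mcm2 and Mcm4 were lower than in WT mice. The comparison asks what loss of cyclin D1 in MuSCs does. Ccnd1 itself, the check on the labels, was at 2.07 to 3.40 RPKM in KO, 6.37 to 8.13 in HET and 10.6 to 13.3 in young WT libraries, with no overlap between genotypes. Which exons are floxed is not stated in the labels, and reads from other exons can remain. Of the 8 genes 0 were called higher and 2 lower, against 5.05% and 1.94% of all genes. With libraries rescaled by median of ratios, 61.1% of called genes were higher, against 72.3% on the deposited scale, and both calls held under that scaling.

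Mcm2 was at 0.670, 0.589, 0.582, 0.887 and 1.05 RPKM in KO and at 1.47, 1.51 and 1.63 RPKM in WT libraries. No KO library reached a WT library, and the level was 2.09-fold lower (-1.06 ± 0.25, limma adjusted p = 0.0237, and -0.54 on the log2(RPKM + 1) scale). Mcm4 was at 20.1, 26.4, 19.4, 21.3 and 21.0 RPKM in KO and at 31.2, 34.5 and 28.7 RPKM in WT libraries, again without overlap (1.46-fold lower, -0.54 ± 0.15, adjusted p = 0.0473). Mcm2 lost its call without KO replicate 3 (0.0546), WT replicate 2 (0.0842) or WT replicate 3 (0.081). Mcm4 lost it without any one of these (0.095, 0.173 and 0.0899), and also without KO replicate 1 (0.0854), 4 (0.0696) or 5 (0.0845) or WT replicate 1 (0.0949), and without the trend and robust settings of limma (0.06).

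The remaining genes were not called in KO mice. Mcm6 was at 4.42 to 5.41 RPKM in the 5 KO libraries and at 7.60, 9.12 and 3.92 RPKM in WT libraries (-0.34 ± 0.21, limma adjusted p = 0.333), so a single WT library lay below all KO libraries. Without that library, WT replicate 3, the difference was -0.70 (adjusted p = 0.0518), and without WT replicate 2 it was -0.10 (0.842). Mcm3, Mcm5 and Mcm7 had log2 differences of 0.08, 0.05 and 0.05, with 95% intervals from -0.27 to 0.44, from -0.37 to 0.47 and from -0.28 to 0.38. Pcna differed by 0.16 (adjusted p = 0.557) and Cdt1 by 0.29 (adjusted p = 0.301). The KO and the old WT libraries were each compared with the same 3 young WT libraries, so a low or high WT library moves both comparisons.

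Among the lists in KO libraries, 9 of the 12 mitotic genes fell and 0 rose (median -1.69). Top2a fell by 2.21 and Prc1, which bundles the spindle midzone, by 1.76. Of 11 E2F genes 1 fell, E2f2, by 0.94 (limma adjusted p = 0.0422), and of 13 G1/S genes 3 fell, Ccnd1, Cdk2 (by 0.54) and the kinase inhibitor Cdkn1c (by 1.11), while Ccnd2, cyclin D2, rose by 0.50. Of 20 polymerase and clamp loader genes 1 was called, Pold4 (0.56). No gene of the origin recognition, origin firing, Cdt1 ligase or deoxynucleotide lists was called. Of 8 endothelial markers 1 was called higher, Cldn5 (0.91, limma adjusted p = 0.0132), and 7 were above 0. They summed to 104 to 133 RPKM in KO and 72.0 to 105 RPKM in young WT libraries. Of 11 satellite cell markers 0 were called and 4 were above 0. No gene of the other marker lists was called. The part of these markers was not tested.

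**Figure D3:**
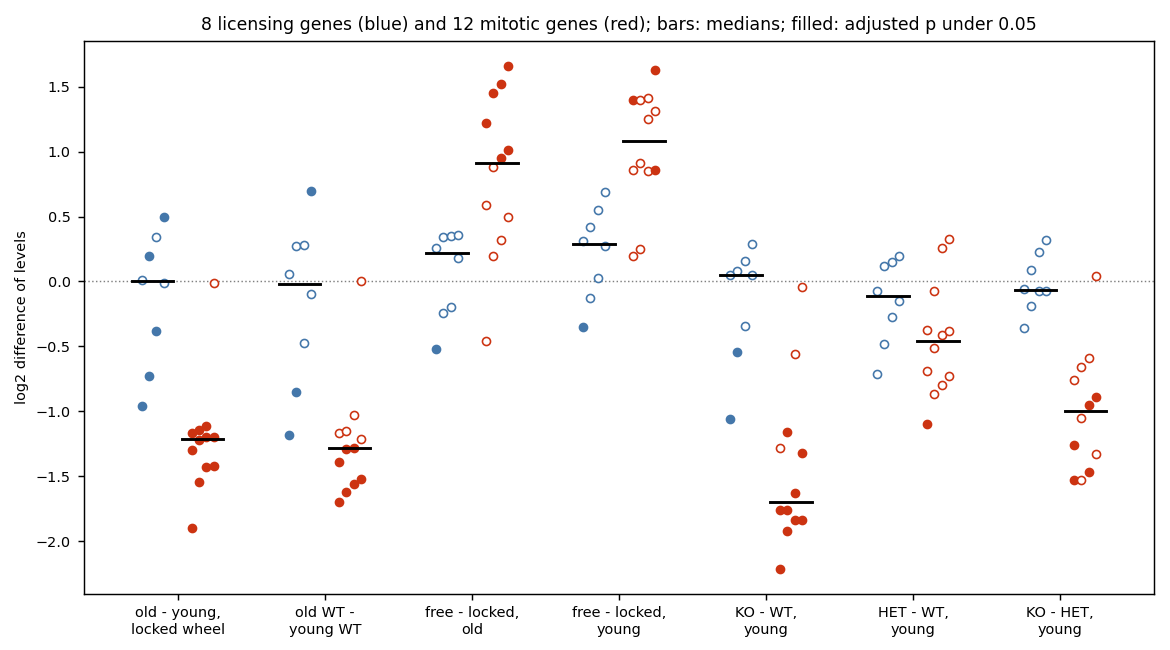
Points are genes, blue for the 8 licensing genes and red for the 12 mitotic genes in the table, with the log2 difference of levels on the vertical axis and 7 comparisons on the horizontal axis; black bars are medians and filled points have an adjusted p under 0.05. The mitotic medians run from -1.69 in KO against WT to 1.08 for the free wheel in young mice, while the medians of the licensing genes stay between -0.11 and 0.29.

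In HET mice 0 of the 8 genes were called by limma, against 1.98% of all genes called higher and 3.4% called lower, and 2 of the 8 had an unadjusted p under 0.05. Over all genes 36.8% of the calls were higher, and 59.4% after median-of-ratios scaling. Mcm2 was at 1.27, 0.658, 1.17 and 0.803 RPKM in HET libraries, all below the 3 WT libraries (-0.71 ± 0.26, limma adjusted p = 0.117). Mcm4 was at 23.9, 16.0, 27.1 and 24.6 RPKM, also below all WT libraries (-0.48 ± 0.16, adjusted p = 0.0933, and 0.0449 in 1 fit over all 8 groups). Of 10 origin firing genes 1 fell, Gins1, by 0.93 (adjusted p = 0.0432), and of 12 mitotic genes 1 fell, Tpx2, by 1.10. Of 13 G1/S genes 2 fell, Ccnd1 by 0.70 and Cdkn1c by 1.06, and 1 rose, Ccnd2, by 0.54. Pold4 was at 0.58 without passing (limma adjusted p = 0.0523). Cdkn1c, Ccnd2 and Pold4 thus lay near their KO values against the same WT libraries. The other licensing genes had log2 differences of 0.15 (Mcm3), 0.12 (Mcm5), -0.15 (Mcm6), -0.27 (Mcm7), -0.07 (Pcna) and 0.20 (Cdt1), with adjusted p from 0.347 to 0.823. Of the satellite cell markers, Pax7 (-0.49, adjusted p = 0.0418) and Myf5 (-0.95, 0.0458) fell, and 0 of the 11 were above 0. Myf5 was at 72.4 to 140.8 RPKM in HET and at 171.9 to 233.6 RPKM in WT libraries. The endothelial marker Cldn5 (0.77) and the pericyte marker Cspg4 (0.83) were called higher, and the part of these markers was not tested.

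KO libraries differed from HET libraries in 0 of the 8 genes by limma, against 5.15% of all genes called higher and 0.891% called lower, with 1 of the 8 at an unadjusted p under 0.05. Of all calls 85.3% were higher on the deposited scale and 60.3% after median-of-ratios scaling. That gene was Mcm7 (0.32 ± 0.14, adjusted p = 0.202), at 7.76 to 10.4 RPKM in KO and at 6.15, 6.64, 10.0 and 6.57 RPKM in HET libraries. Mcm2 and Mcm4 had log2 differences of -0.36 and -0.06 with intervals from -0.84 to 0.13 and from -0.37 to 0.24. Mcm3 and Mcm5 were both at -0.07, Mcm6 at -0.19, Pcna at 0.23 and Cdt1 at 0.09 (adjusted p from 0.356 to 0.851). Of 12 mitotic genes 5 fell and 0 rose, and Rfc3 fell by 0.50 and Pole3 rose by 0.27. Of 13 G1/S genes 2 fell, Ccnd1 by 1.42 and Cdk2 by 0.42, and 0 rose. Ccnd2, Cdkn1c and Pold4 were not called, at -0.04, -0.05 and -0.02. All 8 keratinocyte markers in the table were called higher in HET than in WT libraries (median 7.34) and lower in KO than in HET libraries, so the HET genotype and the keratin RNA in its libraries cannot be told apart.

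The order of the mean levels over all 8 groups is given as a description only, since it sets the 2 cohorts side by side and was not tested across them. Mcm2 was highest in young free (2.27 ± 0.0606 RPKM, SD, n = 3), then young WT (1.54) and young locked (1.42), and lowest in old WT libraries (0.678 ± 0.0327, n = 3). Between neighbours in that order, only the steps from young free to young WT and from young locked to young HET exceeded the larger SD. Mcm4 was highest in young WT (31.4 ± 2.91, n = 3), young free (31.0) and young locked (30.4) and lowest in old free libraries (16.4 ± 2.01, n = 5), with steps beyond the SD only from young locked to old locked and from young KO to old free. Cdt1 had 1 such step, from old locked (4.40) to young KO (3.57), with all old groups above all young groups, and Mcm5 had 1, from old free (3.72) to old locked (2.88). For Mcm3, Mcm6, Mcm7 and Pcna no neighbouring groups differed by more than the larger SD.

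Levels of Mcm2 and Mcm6 went together across the 36 libraries (Pearson r = 0.71 on log2 values, and 0.51 after the group means were removed), as did Mcm2 and Mcm4 (0.62 and 0.43). Mcm3, which was called in no comparison, went with Mcm6 (0.36 and 0.58) and Mcm2 (0.38 and 0.54), and these 2 pairs had the highest values of all pairs of the 8 genes once the group means were removed. Cdt1 ran opposite to Mcm4 (-0.71 and -0.46), and Pcna opposite to Mcm2 (-0.67 and -0.41). Mcm5 and Mcm7 were close to unrelated to Mcm2 (-0.12 and 0.14). These are descriptions over libraries that share groups and the missing directions of variation. By the same measure over the 10727 genes whose mean reached 1 RPKM, the genes most like Mcm2 were Gpc4 (0.87), the mitotic gene Top2a (0.85) and Stac3 (0.85), and those most like Mcm6 were Pik3c3 (0.87), Pold1 (0.86) and Cs (0.85). Mcm4 was most like Bhlhb9 (0.87), Nedd4 (0.87) and Tcaf1 (0.86), and Pcna most like Eif1 (0.90), Prdx1 (0.87) and Amd1 (0.87). The nearest genes were Atp6v1h (0.83), Snx11 (0.83) and Dph2 (0.83) for Cdt1, and Gtf2h3 (0.75), Trim11 (0.74) and Htra3 (0.74) for Mcm7. For Mcm3 they were Txnl4b (0.72), 9430015G10Rik (0.69) and Mrpl18 (0.68), for Mcm5 Lgals3bp (0.72), Ifit2 (0.70) and Pigs (0.69), and for the mean of the 8 genes Rbm14 (0.77), Bckdk (0.76) and Dnajc14 (0.76).

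The authors' deposited table also gives each gene a correlation coefficient with Ccnd1. In the authors' deposited table it was 0.58 for Mcm7, 0.54 for Mcm2, 0.46 for Mcm5, 0.39 for Mcm3, 0.22 for Mcm6, 0.13 for Cdt1, 0.07 for Mcm4 and -0.43 for Pcna. The ring subunits thus ranged from 0.07 to 0.58 in the authors' deposited table, whose coefficients come with no statement of the libraries used.

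In mm10 the genes lie apart from one another except by chromosome. Mcm3 (chr1:20802968-20820312) and Mcm6 (chr1:128331590-128359664) are on the minus strand of chromosome 1, and Mcm5 (chr8:75109569-75128439) and Cdt1 (chr8:122568015-122573554) on the plus strand of chromosome 8. Mcm2 (chr6:88883474-88898780), Mcm4 (chr16:15623897-15637400), Mcm7 (chr5:138164583-138172422) and Pcna (chr2:132249162-132253314) are on minus strands. The exons of Mcm7 share 321 of 4426 bases (7.25%) with Ap4m1 and 64 bases (1.45%) with Cops6, both on the opposite strand, and the gene hosts Mir25, Mir93 and Mir106b. Pcna has 2 annotated pseudogenes. The strand setting and the handling of shared reads were not given in the sources used here. Levels of Mcm7 and Pcna carry that uncertainty.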

How the data were processed

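MuSC RNA from 36 mice was sequenced as 101 bp paired reads, per the labels' protocols. Per the submitters' processing notes, the tools were Trim Galore, STAR and featureCounts of Subread, and the build was mm10. Versions and the strand setting were not given in the sources used here. The authors deposited RPKM values for 11337 genes, with no zeros (0.00144 to 10500), and a score per gene, the authors' deposited correlation coefficient with Ccnd1. The centred log2 matrix had rank 29 of a possible 35. The step that removed 6 directions was not stated in those sources.

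Samples were grouped by title. Within each cohort of 4 groups, limma 3.58.1 (R 4.3.3, statmod 1.5.0, eBayes with trend and robust) was fitted to log2 RPKM without a pseudocount or filter, with Benjamini-Hochberg adjustment of the p-values over all genes and calls under 0.05. The script was tested on simulated data. The 8 genes and the 18 other lists (149 of 201 genes in the table) were chosen with earlier results of these data known. The naming rule took all 8 genes in every comparison, up to 3 called genes per list and direction by lowest p, of which the text gives some, the 3 genes most correlated with each (mean of at least 1 RPKM), and Ccnd1. Bub1b, Mcmbp and the markers outside that rule were named after their values were seen, as were Ccnd2, Cdkn1c and Pold4 where not called. Positions come from GENCODE M21 (11335 identifiers found), promoters from RefSeq GRCm38.p6. Alternatives were log2(RPKM + 1), a mean of at least 1 RPKM, median-of-ratios (RLE) scaling, other sets of groups in the fit, plain eBayes, the replicate number as a block and leaving out each library. Figures used Python 3.11.15 and matplotlib 3.10.9.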

Additional observations from a re-analysis of the deposited data

Results flagged for a closer look

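In each group of 4 to 7 libraries, the highest and lowest value of each gene were checked for a wide gap to the others with Dixon's criterion. Of 40 checks 3 stood out, where chance gives about 1 in 20. Mcm2 was 1.64 RPKM in old free replicate 5, with the next library at 0.891 RPKM. Mcm4 was 26.4 RPKM in young KO replicate 2, with the next at 21.3 RPKM and the other KO libraries lower. Mcm7 was 10.0 RPKM in young HET replicate 3, with the next at 6.64 RPKM.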

How the results depend on the processing

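Under the alternatives no called licensing gene changed direction. The number of the 8 genes called stayed at 1 for the free wheel in old mice and at 0 for the difference of the wheel effects and for KO against HET. For the free wheel in young mice the call of Pcna (1 gene) became 0 in 1 fit over all 8 groups, with only the compared groups, without trend and robust settings and with the replicate block, and was 0 to 1 when single libraries were left out. For KO against WT the 2 calls became 1 without trend and robust settings and 0 with the replicate block (Mcm2 -1.22, adjusted p = 0.0607; Mcm4 -0.55, 0.151), and 0 to 2 without single libraries. HET against WT went from 0 to 1 in 1 fit over all 8 groups. The 3 calls of old against young WT became 1 to 2 without single libraries, and the 5 of age in the wheel cohort 5 to 6. Mcm6 of the WT age comparison also lost its call with only the compared groups (0.113) and the replicate block (0.0656).

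Counts over all genes moved more. With the replicate block they went from 127 to 14 for the wheel in young mice, from 793 to 1 for KO against WT, from 611 to 179 for HET against WT and from 685 to 262 for KO against HET. With only the compared groups these were 22, 379, 300 and 327. KO against HET gave 330 with RLE scaling, the young wheel comparison 84 without trend and robust settings, and the difference of the wheel effects, 1 gene, gave 2 with log2(RPKM + 1). Leaving out single libraries gave 351 to 923 genes for the wheel in old mice (838), 5 to 205 in young mice, 1 to 5 for their difference, 98 to 938 for KO against WT, 68 to 621 for HET against WT, 265 to 743 for KO against HET and 873 to 1366 for old against young WT (1790). Of 27 same-numbered pairs of libraries in compared groups, 6 had deviations correlated above 0.1 (r from -0.26 to 0.30). Of these 4 were among the 5 pairs of old locked and old free libraries (-0.15 to 0.30), where the block left the call of Mcm4. In no comparison were all pairs above 0.1, so the numbers were not taken as pairs. The cause of these shifts was not tested. The depth of each library is unknown, so what counting error adds at the low levels of Mcm2 and of the mitotic genes cannot be given.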
